A study of Pyrus pyrifolia with 6 samples.

Results

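The 7 genes described here are WRKY transcription factor genes whose transcripts were more abundant in the skin of bagged than of unbagged pears: LOC103962153 (WRKY33), LOC103953732 and LOC103952818 (both WRKY70), LOC103952502 (WRKY50), LOC103938975 (WRKY40), LOC103953687 (WRKY18) and LOC103943461 (WRKY53). They are 7 of 119 genes with WRKY in their description and of 42933 genes listed in all. They were chosen by the contrast between bagged and untreated fruits, so that contrast is given for them as a description, with no test. Numbers such as WRKY33 are those of the gene descriptions in the deposited table, which name the most similar known factor and do not show that the pear gene has the same function.

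The fruits came from 6-year-old orchard trees of Cuiguan, a sand pear (Pyrus pyrifolia) whose skin is partly russeted, that is, in part replaced by corky tissue. The untreated group (3 libraries) comprised skin of fruits left without bags. The bagged group (3 libraries) comprised skin of fruits of the same cultivar and orchard that were covered with single-layer white paper bags at 20 days after full bloom and with double-layer yellow-white bags at 40 days. All fruits were sampled at 95 days. Each group has 3 biological replicates by the labels, and the number of fruits or trees pooled in one is not stated. The study asked how russet forms on this skin and how bagging bears on it.

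WRKY factors are plant proteins that bind the W-box, a short DNA element found in many promoters of defence and stress genes, including those of WRKY genes themselves. Most of what is known of the factors named here comes from Arabidopsis. There WRKY33 acts in defence against necrotrophic fungi and is activated by MAP kinases, WRKY70 lies between the salicylate and jasmonate pathways and delays leaf senescence, WRKY53 promotes leaf senescence, WRKY18 and WRKY40 are related factors that bind one another and dampen defence, and WRKY50 is a salicylate-induced factor that represses jasmonate responses. The W-box itself was not searched for here, because no promoter or protein sequence was used.

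Depth bears on these genes unequally. Library totals ran from 15764049 to 19546285 counts, and a count of 3 in a library, the limit that a count of 0 allows, came to 0.153 to 0.186 CPM (counts scaled to library size with TMM factors). Intervals from counts cover counting error only. In whole-skin RNA, fewer cells of a type and less RNA per cell cannot be told apart. Untreated replicate 3 lay nearer to the bagged libraries than the other untreated libraries did on the first principal component of all tested genes, at -24.0 against -52.0 and -59.8, with the bagged libraries at 40.1 to 50.3.

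WRKY33, LOC103962153, was the most abundant of the 7 genes per length in every library. It lies on scaffold NW_008988261.1 from 155266 to 157581, on the minus strand, in the coordinates of the deposited table. It had 457, 541 and 1121 counts in untreated replicates 1 to 3 and 4121, 2800 and 6580 in bagged replicates 1 to 3. The lowest bagged library stood 2.31-fold above the highest untreated one on the CPM scale, and untreated replicate 3 stood apart from the other 2 untreated libraries. The mean was 41.1 ± 24.5 CPM (SD, n = 3) in untreated and 251 ± 92.0 CPM in bagged skin, and the log2 fold change was 2.61 ± 0.43 (SE). Per length, WRKY33 ranked 19th, 22nd and 4th among the 119 WRKY genes in untreated replicates 1 to 3 by the authors' FPKM, and 1st in each bagged library.

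The WRKY70 gene LOC103953732 lies on scaffold NW_008988145.1 from 390626 to 393471, on the plus strand. It had 64, 55 and 146 counts in the untreated libraries and 1139, 539 and 1424 in the bagged ones, so that its lowest bagged library exceeded its highest untreated library 3.41-fold in CPM. Its fold change was 3.50 ± 0.49 on the log2 scale. The other WRKY70 gene, LOC103952818, on scaffold NW_008988134.1 from 862356 to 876700 and on the plus strand, had 40, 58 and 125 counts in untreated and 765, 298 and 697 in bagged libraries. Its groups did not overlap either, and its log2 fold change was 2.95 ± 0.52.

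This second WRKY70 gene is listed with a span of 14345 bases and a transcript length of 1269 bases, and 2 genes on the other strand lie within its span. One of them, LOC103952819, a rhodanese-like domain gene, had 2259 counts over the 6 libraries and a log2 fold change of -0.08, and the other, LOC103952820, had 1496 counts and a log2 fold change of 0.01. The strand setting of the counting is unknown here, so reads of these genes could not be told apart with certainty. Neither of the overlapping genes shared the difference of LOC103952818.

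The pair of WRKY70 genes stood in similar surroundings. Each was followed by a WRKY55 gene on the other strand, at 637 bases for LOC103953732 and 556 bases for LOC103952818, and each had a gene described as rhodanese-like domain-containing protein 7 close by. The WRKY55 neighbours LOC103953821 and LOC103952822 had 5 and 29 counts over the 6 libraries and did not pass the filter on low counts. Per length, LOC103953732 was 0.856 to 1.44 times as abundant as LOC103952818 in untreated libraries and 1.34 to 1.84 times in bagged ones, ranges that overlap. Reads shared between near-identical copies could be split between them by the counting, and without sequences this was not tested.

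WRKY50, LOC103952502, was the member with the most even replicates. It lies on scaffold NW_008988041.1 from 2064123 to 2065440, on the minus strand. Its counts were 15, 26 and 28 in untreated and 146, 128 and 246 in bagged libraries. Its coefficient of variation was 33.1% among untreated and 29.6% among bagged libraries in CPM, against 36.6% to 90.8% among bagged libraries for the other 6 genes. Its mean was 1.31 ± 0.434 CPM (SD, n = 3) in untreated and 9.68 ± 2.87 CPM in bagged skin. Its log2 fold change was 2.88 ± 0.33, and the lowest bagged library stood 4.22-fold above the highest untreated one.

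WRKY40, WRKY18 and WRKY53 were close to silent in untreated skin. LOC103938975 (WRKY40, scaffold NW_008989021.1, 80821 to 82546) had 0, 3 and 3 counts in untreated and 101, 17 and 52 in bagged libraries. LOC103953687 (WRKY18, scaffold NW_008988041.1, 2826818 to 2828630) had 0, 0 and 1 counts in untreated and 96, 15 and 37 in bagged libraries. LOC103943461 (WRKY53, scaffold NW_008988059.1, 1269329 to 1271318) had 1, 1 and 5 counts in untreated and 40, 18 and 72 in bagged libraries. The groups did not overlap for any of the 3, and bagged replicate 2 was the lowest bagged library in each.

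From summed counts scaled to depth, WRKY40 was 28.3-fold higher in bagged skin, with an exact 95% counting interval of 12.7 to 78.2. WRKY53 was 18.6-fold higher (8.76 to 47.1). Such intervals leave out the spread between libraries, which was 6.28-fold among bagged libraries for WRKY40, and are no test of the contrast. For WRKY18 the ratio of 148 rests on 1 untreated count against 148 bagged counts, and its interval ran from 26.1 to 5881, so its size is poorly known. These 3 genes passed the filter on low counts only through the bagged libraries: no untreated library, and all 3 bagged ones, reached its level of 0.571 CPM. The other 4 genes reached it in all 6 libraries.

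Untreated replicate 3 had the highest untreated CPM in all 7 genes, so leaving it out was bound to widen the difference. With that library left out, the log2 fold change was 3.22 for WRKY33, 4.16 for LOC103953732, 3.65 for LOC103952818, 3.13 for WRKY50, 5.22 for WRKY40 and 5.31 for WRKY53. For WRKY18 the remaining untreated libraries are at 0 counts, and the fitted value is no measure of size. Without bagged replicate 1, the log2 fold changes of WRKY40 and WRKY18 were smaller, at 3.96 and 5.77.

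**Figure D1:**
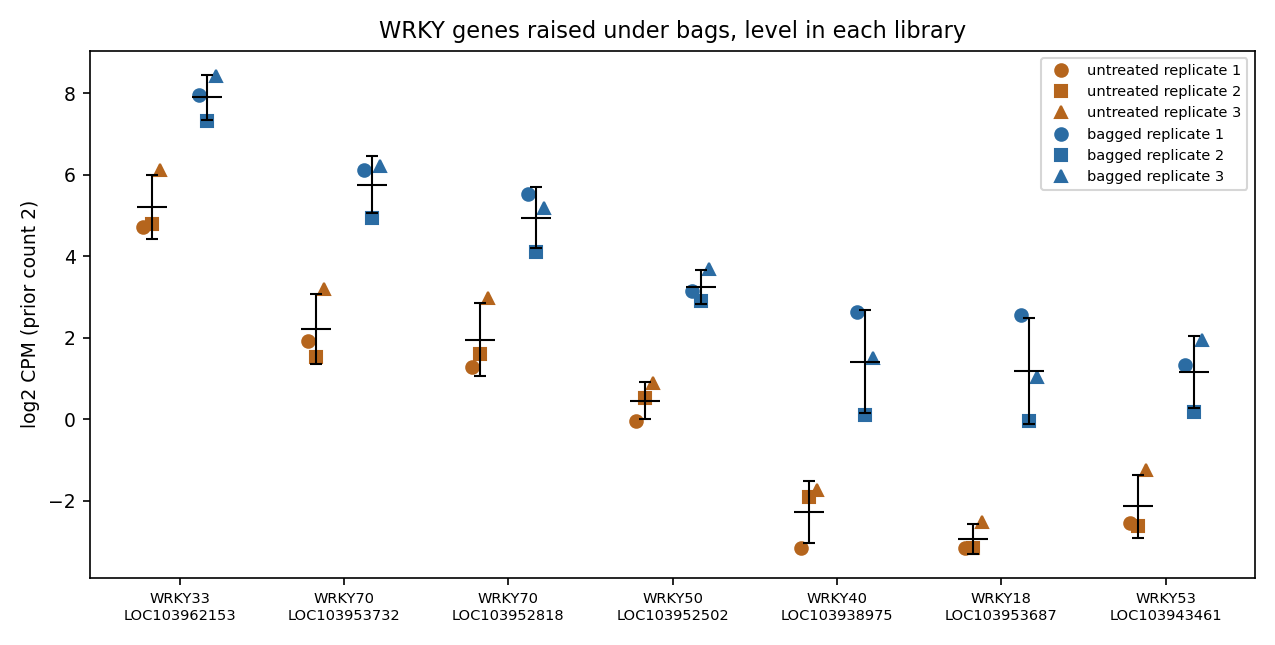
Level of each of the 7 WRKY genes in each library, as log2 CPM with a prior count of 2, so that a count of 0 has a finite value. Points are libraries, bars are means with SD over 3 libraries, brown is untreated and blue is bagged; the groups do not overlap for any of these genes, which were chosen on this contrast, and bagged replicate 2 is the lowest bagged point throughout.

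The order of levels in bagged skin, per length in the authors' FPKM, was WRKY33 (132 ± 48.0; SD, n = 3), the WRKY70 genes LOC103953732 (41.2 ± 16.8) and LOC103952818 (26.1 ± 11.7), WRKY50 (11.01 ± 3.25), WRKY40 (2.65 ± 2.12), WRKY18 (2.40 ± 2.17) and WRKY53 (1.63 ± 0.923). WRKY33 lay above LOC103953732 with no overlap between libraries, and so did WRKY50 above WRKY40. The other neighbours in this order overlapped in their ranges. Within every bagged library, LOC103953732 still lay above LOC103952818, LOC103952818 above WRKY50, and WRKY40 above WRKY18. WRKY18 lay above WRKY53 in bagged replicates 1 and 2 and below it in bagged replicate 3. In untreated skin the means ran in the order WRKY33 (21.5), LOC103953732 (3.66), LOC103952818 (3.39), WRKY50 (1.48), WRKY53 (0.0938), WRKY40 (0.0912) and WRKY18 (0.0171). The last 3 rest on 7, 6 and 1 counts over all untreated libraries, so their order is not resolved.

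Together the 7 genes held a larger part of the WRKY transcripts under bags, which follows from their choice and is given for its size. Their summed FPKM was 19.3, 20.4 and 50.9 in untreated replicates 1 to 3 and 237, 130 and 283 in bagged replicates 1 to 3. As a share of the FPKM of all 119 WRKY genes this was 2.55%, 2.59% and 6.11% in untreated and 22.3%, 14.8% and 24.1% in bagged libraries. The summed CPM of the other 112 WRKY genes was 1361 to 1425 in untreated and 1343 to 1585 in bagged libraries, so the groups overlapped there.

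**Figure D2:**
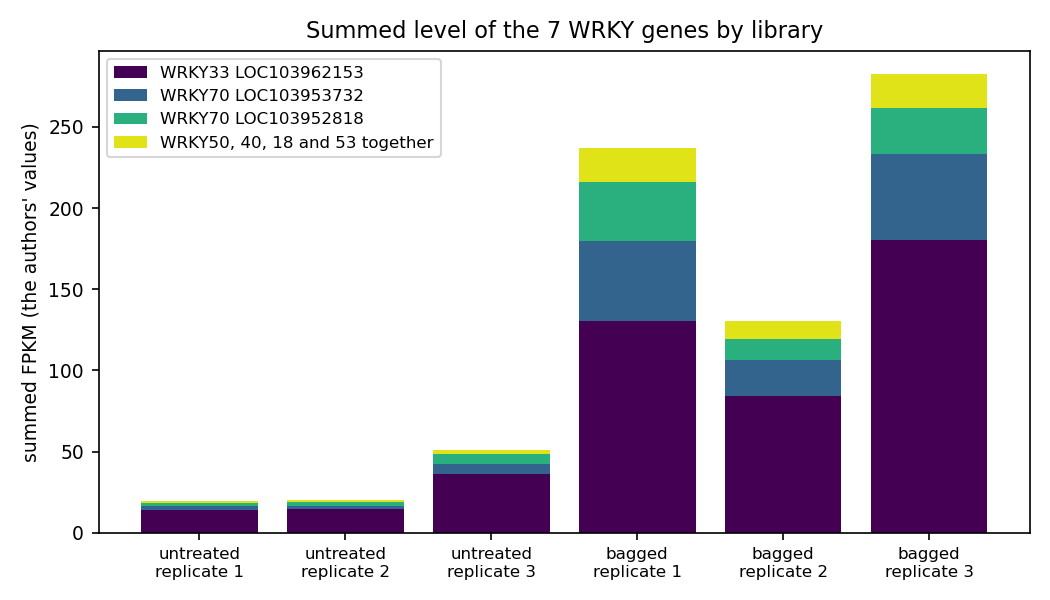
Summed level of the 7 WRKY genes in each library, in the authors' FPKM; bars stack WRKY33, the 2 WRKY70 genes and the other 4 genes together. WRKY33 makes up most of every bar, and the bar of untreated replicate 3 (50.9) is higher than those of the other untreated libraries (19.3 and 20.4) and lower than all bagged ones (130 to 283).

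Across all genes, 244 of 25139 tested were called higher in bagged skin (0.971%) and 426 lower (1.69%) at an adjusted p below 0.05 in edgeR's quasi-likelihood test with the Benjamini-Hochberg method, and the median log2 fold change was -0.01. Groups did not overlap, with bagged higher, for 10.7% of all tested genes. All 7 WRKY genes are among the 244, by choice, and nothing is read from that count. The WRKY genes nearest to a call without reaching it were the WRKY53 gene LOC103958164 and the WRKY40 gene LOC103945359, at adjusted p of 0.0569 and 0.06 (edgeR). In the authors' deposited table the log2 fold changes of the 7 genes ran from 2.62 (WRKY33) to 7.14 (WRKY18).

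Untreated replicate 3 lay between its group and the bagged libraries. On a log2 CPM scale where 0 is the mean of untreated replicates 1 and 2 and 1 is the mean of the bagged libraries, it stood at 0.43 for WRKY33, 0.36 for LOC103953732, 0.44 for LOC103952818, 0.21 for WRKY50, 0.20 for WRKY40, 0.15 for WRKY18 and 0.36 for WRKY53. The median was 0.36. In CPM, untreated replicate 3 was thus above both other untreated libraries and below every bagged library for each of the 7 genes. For WRKY40, however, it had the same 3 counts as untreated replicate 2. For WRKY18 it had 1 count against 0 and 0, and for WRKY50 28 counts against 26 in untreated replicate 2. The lowest bagged library, replicate 2, stood at 0.67 to 0.88.

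The place of this library was also taken for other genes, as background. The median place of untreated replicate 3 was 0.24 over the 237 other genes called higher, with quartiles of 0.07 and 0.34, and 0.155 over the 426 genes called lower. It was the highest untreated library for 66.2% of those 237 genes and for 31.2% of all tested genes. Untreated replicate 3 was highest in its group and bagged replicate 2 lowest in its group, at the same time, in 7 of 7 WRKY genes, in 31.6% of the 237 genes and in 13.4% of all tested genes. The 7 genes share the same 6 libraries, so these are not 7 independent observations. They were also chosen with the place of untreated replicate 3 in view. Nothing is therefore read from the 7 of 7, or from their median place beside that of other genes. WRKY40 enters it with 3 counts in both untreated replicates 2 and 3. On a log2(FPKM + 1) scale, which weighs low levels less, the median place over the 7 genes was 0.17. Places of other genes on that scale are not given here.

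**Figure D3:**
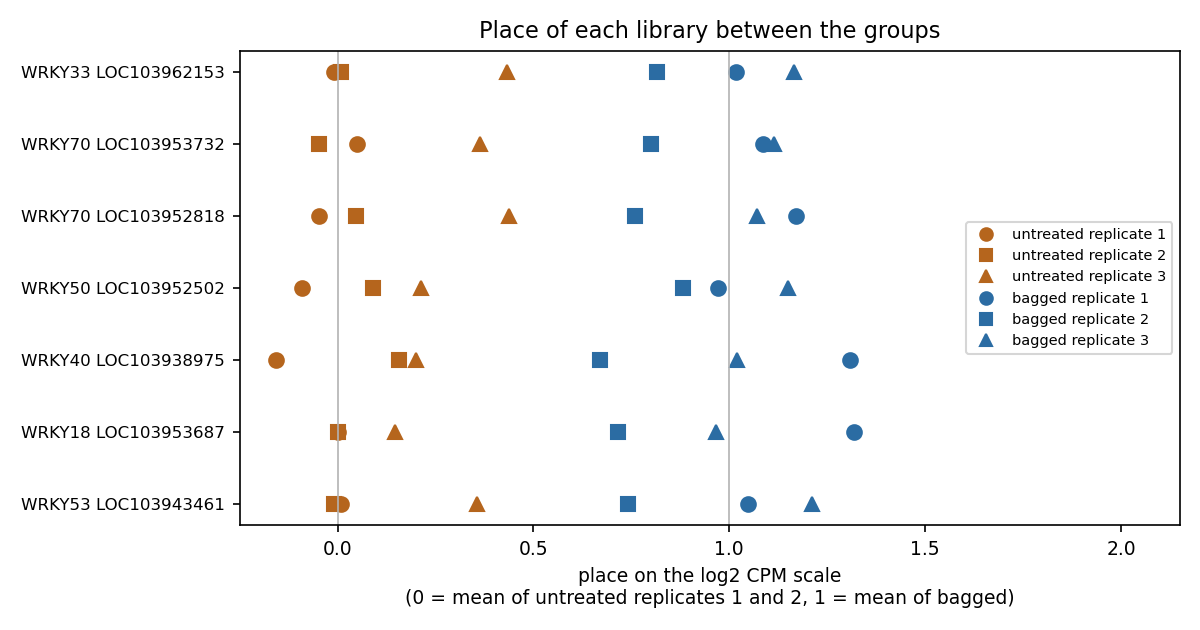
Place of each library for each of the 7 WRKY genes, on a log2 CPM scale where 0 is the mean of untreated replicates 1 and 2 and 1 is the mean of the bagged libraries. Untreated replicate 3 (brown triangles) lies between 0.15 and 0.44, and bagged replicate 2 (blue squares) between 0.67 and 0.88. For WRKY40 and WRKY18 the place of untreated replicate 3 rests on 3 counts and 1 count.

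WRKY40 and WRKY18 lay closest to each other and farther from the other 5 genes in their deviations within groups. Deviations from the group mean, in log2 CPM, were compared between genes by their root mean square difference over the 6 libraries. The measure leaves out the contrast between groups but keeps the place of untreated replicate 3. That place was in view when the genes were chosen, so nothing is read from their closeness as a set. WRKY33, LOC103953732 and WRKY53 were close to one another, at about 0.20 for each pair, and LOC103952818 lay 0.25 from LOC103953732. WRKY40 and WRKY18 were each nearest to the other, at 0.38, and lay 0.48 to 0.76 from the remaining genes. WRKY50 lay 0.30 to 0.46 from the genes other than WRKY40 and WRKY18. Bagged replicate 3 was the highest bagged library in WRKY33, LOC103953732, WRKY50 and WRKY53, and replicate 1 in LOC103952818. In WRKY40 and WRKY18 replicate 1 was also the highest, in the same order as in LOC103952818 (replicates 1, 3 and 2 from high to low), and stood 1.22 and 1.38 above the bagged mean on the log2 scale. Counts of WRKY40, WRKY18 and WRKY53 are low, with 6, 1 and 7 untreated counts in all, and counting error adds to their differences.

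WRKY40 and WRKY18 also shared surroundings. Each lies next to a gene described as formin-like protein 3 on the other strand, at 620 bases from LOC103938975 and 1052 bases from LOC103953687, and each is followed, in scaffold coordinates and on the same strand, by a further WRKY40 gene. The gene LOC103953663 starts 3216 bases past LOC103953687. It had 5703 counts in all and a log2 fold change of 0.71 ± 0.39, with overlapping groups. The gene LOC103938977 starts 28946 bases past LOC103938975, and LOC103938976, with 0 counts, lies between them. It had 3541 counts and a log2 fold change of 2.21 ± 0.54, an adjusted p of 0.0881 (edgeR), with 121, 106 and 374 counts in untreated and 780, 667 and 1493 in bagged libraries. In both places the chosen gene was close to silent in untreated skin and the WRKY40 gene further along was not. Whether reads were shared between the genes of these places was not tested.

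The other tested WRKY genes that carry the number of one of the 7 were set beside them, a grouping made after their values were seen. There were 7 of them, 4 described as WRKY40 and 3 as WRKY53. All 7 had a positive log2 fold change, with a median of 2.09. In 6 the groups did not overlap, with bagged higher, against 10.7% of all tested genes. However, none of the 7 passed edgeR's test after adjustment (6 had an unadjusted p below 0.05). DESeq2 called 4 of the 7 higher. LOC103958164 (WRKY53) had 6, 5 and 15 counts in untreated and 88, 27 and 143 in bagged libraries. LOC103943771 (WRKY53) had 337, 74 and 879 counts in untreated and 1925, 1316 and 2613 in bagged libraries, with a log2 fold change of 2.09 ± 0.74 and an adjusted p of 0.218 (edgeR). Its untreated libraries differed more than 10-fold from one another. A further 8 genes with these numbers had too few counts to be tested, 4 of them with none.

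**Figure D4:**
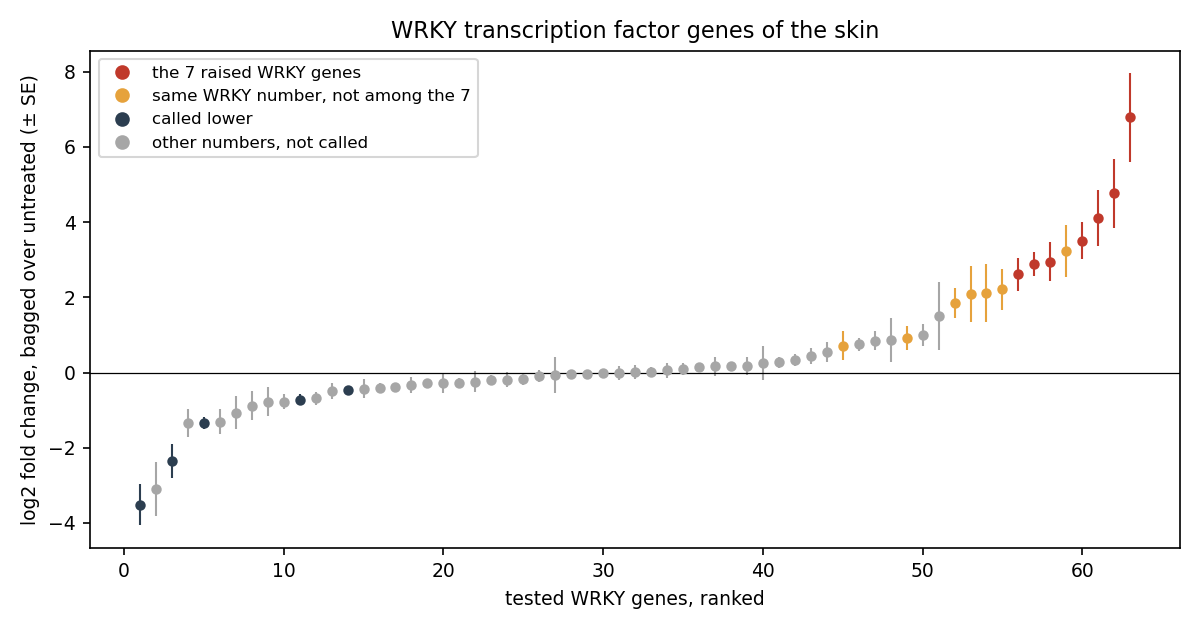
Log2 fold change (bagged over untreated, ± SE) of the 63 tested WRKY genes, ranked. The 7 chosen genes (red) run from 2.61 to 6.78, genes that share their WRKY number (orange) lie between 0.71 and 3.24, and 5 genes were called lower (dark).

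Of the 56 other tested WRKY genes none was called higher by edgeR and 5 (8.93%, against 1.69% of all genes) were called lower, and their median log2 fold change was -0.04. At an unadjusted p below 0.05 they were 9 higher and 14 lower, and DESeq2 called 7 higher and 9 lower. The WRKY71 gene LOC103947434 fell from 18.5 ± 3.92 to 7.30 ± 0.0352 CPM (SD, n = 3), by 1.34 ± 0.17 on the log2 scale (adjusted p = 0.0111, edgeR). The WRKY23 gene LOC103953120, the most abundant WRKY gene of untreated skin in FPKM, fell by 0.72 ± 0.14 on the log2 scale (adjusted p = 0.0437, edgeR). The other 3 were named after their values were seen. They were the WRKY24 genes LOC103930050 (-3.52 ± 0.55) and LOC103933182 (-2.35 ± 0.45) and the WRKY14 gene LOC103945078 (-0.46 ± 0.09). Leaving out bagged replicate 1 ended the call of WRKY71 (adjusted p = 0.0516), and that of WRKY23 held only when untreated replicate 3 was the library left out (otherwise 0.0593 to 0.135). Of the 5 calls in this direction there were 0 without bagged replicate 1, 1 when bagged replicate 2 or untreated replicate 1 or 2 was left out, 2 without bagged replicate 3 and 4 when untreated replicate 3 was the one left out. Under a block for replicate number 2 were lower. In the other direction edgeR called 3 higher under that block, 3 with no filter on low counts and 2 each when bagged replicate 2 or untreated replicate 3 was left out.

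Genes that act with WRKY factors in other plants were then counted in lists taken from the gene descriptions. Over all tested genes 0.971% were called higher and 1.69% lower, the shares to set beside the counts of each list. Of 54 tested genes of MAP kinase cascades, which phosphorylate WRKY33 in Arabidopsis, 2 rose and none fell by edgeR (1 fell at an unadjusted p below 0.05, and 0 with DESeq2). Both were described as mitogen-activated protein kinase kinase 9-like. LOC103950550 had 17.9, 10.99 and 31.7 CPM in untreated and 95.3, 85.7 and 60.1 CPM in bagged libraries, a log2 fold change of 1.996 ± 0.36 (adjusted p = 0.0343, edgeR). LOC103946907 rose by 1.11 ± 0.19 on the log2 scale (adjusted p = 0.0302, edgeR). The summed level of the list was 2201 to 2378 CPM in untreated and 2419 to 2609 CPM in bagged libraries. The MAP kinase 3 genes LOC103943786 and LOC103948905 had log2 fold changes of 0.41 ± 0.17 and 0.77 ± 0.36 and overlapping groups, and neither passed (adjusted p = 0.289 and 0.346, edgeR). Both kinase calls ended when replicate 1 or 2 of either group was left out (edgeR adjusted p 0.0522 to 0.12), and then no gene of the list rose, while 6 genes of the list rose without untreated replicate 3.

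Among the 11 tested genes of VQ motif proteins, which bind WRKY factors, 1 rose and none fell by edgeR (2 fell at an unadjusted p below 0.05, and 0 with DESeq2). It was LOC103939899, described as sigma factor binding protein 2, whose Arabidopsis counterpart binds WRKY33. Its mean was 8.15 ± 0.995 CPM (SD, n = 3) in untreated and 17.01 ± 0.991 CPM in bagged skin. The rise was 1.06 ± 0.14 on the log2 scale (adjusted p = 0.0116, edgeR), a call that ended without bagged replicate 1 (0.0532). The median of the list was -0.20.

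Of 52 tested genes of salicylate synthesis, conversion and signalling 1 rose (1.92%, against 0.971% of all genes) and 2 fell (3.85%, against 1.69%). At an unadjusted p below 0.05 they were 12 higher and 6 lower, and the median log2 fold change was 0.05. The list also took in some methylesterases of other pathways. The gene that rose, LOC103967120, a salicylate carboxymethyltransferase-like gene of the family that makes methyl salicylate, had 1.45, 1.42 and 4.52 CPM in untreated and 51.5, 10.8 and 26.4 CPM in bagged libraries, with its bagged libraries in the order of LOC103952818, WRKY40 and WRKY18. Its log2 fold change was 3.60 ± 0.67 (adjusted p = 0.0375, edgeR), a call that ended on leaving out bagged replicate 1 or 3 or replicate 1 or 2 of the untreated group (0.0734 to 0.127). The 2 that fell, named after their values were seen, were the TGA transcription factor genes LOC103947866 and LOC103935663, at -3.31 ± 0.48 and -3.01 ± 0.50. Neither was called when replicate 1 or 2 of either group was left out. DESeq2 called 6 genes of the list higher and 3 lower, the replicate block gave 4 higher, and 2 rose without untreated replicate 3.

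Of 10 core genes of the salicylate pathway and its kinases, named for their roles, none passed edgeR's test, while 6 had an unadjusted p below 0.05 and DESeq2 called 2 higher. The isochorismate synthase 2 gene LOC103958749, of salicylate synthesis, had a log2 fold change of -0.52 ± 0.19 (adjusted p = 0.227, edgeR). The PAD4 gene LOC103946787 and the EDS1-like gene LOC103958804, which code for lipase-like proteins of defence signalling, had 0.12 ± 0.22 and 0.71 ± 0.40. The NPR3-like gene LOC103948016, of the salicylate receptor family, had 15.9, 20.7 and 18.2 CPM in untreated and 30.8, 26.0 and 41.5 CPM in bagged libraries (0.84 ± 0.19, adjusted p = 0.0623, edgeR). The SAR DEFICIENT 1-like gene LOC103939014, a regulator of salicylate synthesis, had 0.463, 0.967 and 0.434 CPM in untreated and 1.998, 1.83 and 2.67 CPM in bagged libraries (1.77 ± 0.39, adjusted p = 0.0639, edgeR). Groups did not overlap, with bagged higher, in these last 2 genes and in 2 further NPR3-like genes, LOC103948017 (0.58 ± 0.20) and the gene listed as NPR-1 (0.22 ± 0.08), that is in 4 of the 10 core genes, against 10.7% of all genes. They did not overlap, with bagged lower, in LOC103958749.

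Defence effector and receptor lists held called genes in both directions. Of 37 pathogenesis-related protein genes 1 rose and 1 fell (2.7% each, against 0.971% and 1.69% of all genes). More of the list lay lower than higher: at an unadjusted p below 0.05 (edgeR) 1 was higher and 9 lower. DESeq2 called 1 higher and 6 lower. Groups did not overlap in 2 with bagged higher and in 11 with bagged lower (10.7% and 11% of all tested genes), and the list median was -0.15. The endochitinase-like gene LOC103929599 rose from 1.55 ± 0.266 to 6.55 ± 0.536 CPM (SD, n = 3; 2.08 ± 0.22, adjusted p = 0.0071, edgeR) and the thaumatin-like gene LOC103950668 fell from 18.2 ± 3.19 to 5.11 ± 1.23 CPM (-1.83 ± 0.22, adjusted p = 0.0097), both of them called also without each library in turn. Of 298 disease resistance genes 5 rose (1.68%) and 1 fell (0.336%), against 0.971% and 1.69% of all genes. LOC103941007, described as disease resistance protein At5g66900, had 49.5, 45.4 and 89.9 CPM in untreated and 178, 170 and 338 CPM in bagged libraries (1.90 ± 0.35, adjusted p = 0.0358, edgeR), and the RPM1-like gene LOC103962515 rose by 1.65 ± 0.26 (0.0218). Both calls held only when the library left out was untreated replicate 3 (otherwise 0.0553 to 0.122), and 0 to 1 genes of the list rose without any other library. Named after their values were seen, the others that rose were LOC103934985 (1.65 ± 0.33), LOC103956306 (1.46 ± 0.30) and LOC103930364 (1.04 ± 0.19), and the gene that fell was LOC103962514 (-1.33 ± 0.21). DESeq2 called 11 disease resistance genes higher and 3 lower.

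Of 112 cysteine-rich and lectin receptor-like kinase genes 3 rose (2.68%) and 4 fell (3.57%), against 0.971% and 1.69% of all genes. The list median was 0.01. The S-receptor-like kinase genes LOC103943101 and LOC103952070 rose by 1.59 ± 0.25 and 1.07 ± 0.21 (adjusted p = 0.0199 and 0.0424, edgeR). Both calls ended on leaving out untreated replicate 1 or 2 or bagged replicate 1 or 3, and that of LOC103952070 also without bagged replicate 2 (0.0557 to 0.126). The counts were 0 higher and 2 lower without any one of these but bagged replicate 2, where they were 1 and 0, and 5 higher and 4 lower without untreated replicate 3. With scaling to library size alone the call of LOC103952070 ended (0.0516), the replicate block gave 6 higher and 4 lower, and DESeq2 called 10 higher and 9 lower. Named after their values were seen, the third gene that rose was LOC103952071 (1.03 ± 0.18) and those that fell were LOC108865342 (-3.44 ± 0.50), LOC108867011 (-2.92 ± 0.50), LOC103958249 (-2.39 ± 0.33) and LOC103948110 (-0.64 ± 0.13). Of 12 wall-associated kinase genes 1 rose, LOC103943304, which the naming rule leaves out for its level and which was named after its values were seen (1.79 ± 0.34). It was called only when untreated replicate 3 was the library left out. None of the 12 fell by edgeR, 1 fell at an unadjusted p below 0.05 and 0 with DESeq2.

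Senescence and jasmonate lists, for the processes that WRKY70, WRKY53 and WRKY50 are tied to in Arabidopsis, also held called genes in both directions. Of 33 senescence-linked genes 1 rose (3.03%, against 0.971% of all genes) and 3 fell (9.09%, against 1.69%). The 3 were SRG1-like genes, neighbours on 1 scaffold: LOC103965387 (-2.82 ± 0.39, adjusted p = 0.0148, edgeR), LOC103965386 (-0.86 ± 0.17, named after its value was seen) and LOC103965388 (-1.17 ± 0.21, adjusted p = 0.0357, edgeR). The gene that rose, likewise named after its values were seen, was LOC103928444, described as senescence-associated carboxylesterase 101-like, whose Arabidopsis counterpart pairs with EDS1, from 63.7 ± 6.13 to 108 ± 21.7 CPM (SD, n = 3; 0.76 ± 0.15, adjusted p = 0.0478, edgeR). The call of LOC103965387 ended without bagged replicate 1 or 2 (0.0546 and 0.0517) and that of LOC103965388 on leaving out bagged replicate 1 or 3 or replicate 1 or 2 of the untreated group (0.0988 to 0.119). Without bagged replicate 1 no gene of this list was called, and 1 fell without any other library but untreated replicate 3. The gene that rose was called only without bagged replicate 2 or untreated replicate 3.

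Of 53 jasmonate genes 2 rose (3.77%, against 0.971% of all genes) and 1 fell (1.89%, against 1.69%), with a median of 0.18. More of the list lay higher than lower: at an unadjusted p below 0.05 (edgeR) 18 were higher and 3 lower. Groups did not overlap in 13 with bagged higher and in 3 with bagged lower (10.7% and 11% of all tested genes). The 12-oxophytodienoate reductase 3-like gene LOC103929738, of jasmonate synthesis, rose by 0.83 ± 0.17 (adjusted p = 0.047, edgeR) and the lipoxygenase gene LOC103954907 fell by 0.99 ± 0.13 (adjusted p = 0.0117). The call of LOC103929738 held only when untreated replicate 3 was left out (otherwise 0.081 to 0.152), and that of LOC103954907 ended without bagged replicate 2 (0.0502). The other gene that rose, named after its values were seen, was the TIFY 3B-like gene LOC103959124 (0.67 ± 0.13), of the family of jasmonate repressors. Without untreated replicate 3, 8 jasmonate genes rose, 0 to 1 without any other library and 0 with scaling to library size alone. DESeq2 called 9 higher and 1 lower. The summed level of the jasmonate list was 2400 to 2770 CPM in untreated and 3243 to 4062 CPM in bagged libraries.

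Stress regulators of other families also held called genes in both directions. Of 84 ethylene-responsive factor genes 3 rose (3.57%, against 0.971% of all genes) and 6 fell (7.14%, against 1.69%). At an unadjusted p below 0.05 (edgeR) they were 26 higher and 9 lower. The gene LOC103926617, ethylene-responsive transcription factor 5-like, had 32.1, 32.8 and 67.1 CPM in untreated and 159, 148 and 164 CPM in bagged libraries (1.84 ± 0.27, adjusted p = 0.0175, edgeR), and the RAP2-3 gene LOC103959375 fell by 1.72 ± 0.30 (0.0321). Untreated replicate 3 was the highest untreated and bagged replicate 2 the lowest bagged library of LOC103926617, as in the 7 WRKY genes. Its call ended when replicate 1 or 2 of either group was left out and that of LOC103959375 when replicate 1 or 3 of either group was (0.0505 to 0.127). Without untreated replicate 3, 10 genes of this list rose and 4 fell. Without the others 0 to 1 rose and 0 (bagged replicate 1) to 4 fell, and DESeq2 called 10 higher and 8 lower. The other 2 that rose, named after their values were seen, were LOC103961913 (ERF105-like, 1.64 ± 0.32) and LOC103939939 (0.60 ± 0.10).

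Of 12 ZAT zinc finger genes, regulators of rapid stress responses, 1 rose (8.33%) and 2 fell (16.7%). The ZAT10-like gene LOC103950983 had 8.80, 13.2 and 24.7 CPM in untreated and 51.0, 42.4 and 57.1 CPM in bagged libraries (1.69 ± 0.33, adjusted p = 0.0454, edgeR), whereas the ZAT12-like gene LOC103930024 fell from 6.97 ± 2.64 to 1.15 ± 0.058 CPM (SD, n = 3; -2.60 ± 0.33, adjusted p = 0.0113). The summed level of this list was 96.7, 99.4 and 228 CPM in untreated replicates 1 to 3 and 294 to 406 CPM in bagged libraries. LOC103950983 was called only when untreated replicate 3 was left out (otherwise 0.0781 to 0.134), and not with scaling to library size alone, and the call of LOC103930024 ended without bagged replicate 1 or 2 (0.0534 and 0.0503). A second ZAT12-like gene, LOC103939116, fell by 2.73 ± 0.33 (named after its values were seen). Without untreated replicate 3, 3 genes of the list rose. Among 16 genes of alternative respiration 1 rose, the ubiquinol oxidase gene LOC103952209 (4.11 ± 0.45, adjusted p = 0.00786, edgeR), also called without each library in turn. None fell by edgeR, at an unadjusted p below 0.05 or with DESeq2 (0 each), and 3 rose without untreated replicate 3.

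**Figure D5:**
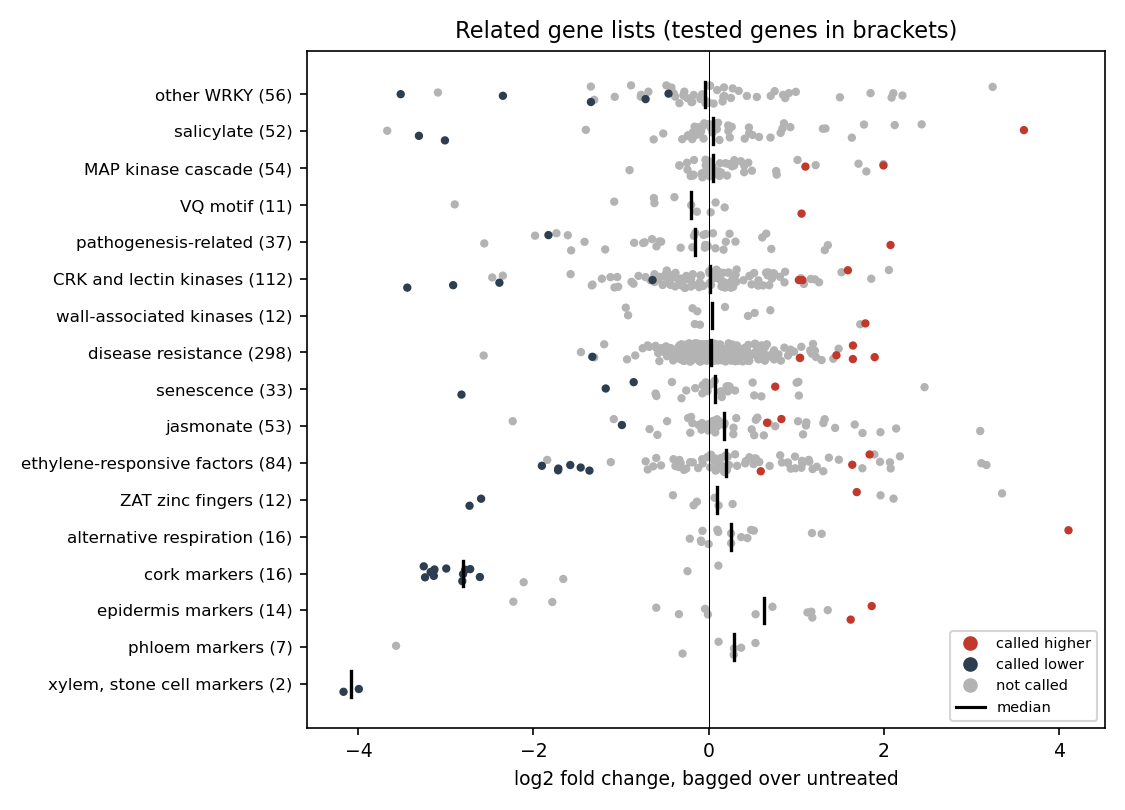
Log2 fold change (bagged over untreated) of every tested gene of 17 related lists, with the number tested in brackets. Red points were called higher, dark points lower and grey points neither (edgeR adjusted p below 0.05), and black lines are list medians; cork markers stand to the left with a median of -2.81, and the other lists of 5 or more genes have medians between -0.20 and 0.63.

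Markers of skin tissues were set beside the same contrast. Of 16 tested cork markers, for suberin synthesis and export, 12 fell and none rose by edgeR (0 at an unadjusted p below 0.05 and 0 with DESeq2), with a median of -2.81. Among them CYP86A1, LOC103963213, fell by 3.24 ± 0.31 and the transporter gene LOC103932967 fell by 3.25 ± 0.37 (adjusted p = 0.00602 and 0.00872, edgeR). Their summed level was 393 to 637 CPM in untreated and 106 to 139 CPM in bagged libraries. It was lowest among the untreated libraries in replicate 3, the library in which the 7 WRKY genes were highest. Without bagged replicate 2, 7 cork markers fell.

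Of 14 epidermis markers 2 rose and none fell by edgeR (2 fell at an unadjusted p below 0.05, and 0 with DESeq2). They were the protodermal factor 1-like gene LOC103938356 (1.86 ± 0.34, adjusted p = 0.0364, edgeR) and the CYP86A22 gene LOC103963865 (1.62 ± 0.32, adjusted p = 0.0448). Groups did not overlap in 5 epidermis markers with bagged higher and in 3 with bagged lower (10.7% and 11% of all tested genes). Markers not called included LOC103965506 at -2.23 and LOC103938693 at -1.785 on the log2 scale, and the list median was 0.63. The summed level of the epidermis list was 149 to 199 CPM in untreated and 229 to 398 CPM in bagged libraries. Without bagged replicate 2, 1 marker rose, and 0 without any other library (edgeR adjusted p 0.0702 to 0.115 for LOC103938356 and 0.0547 to 0.119 for LOC103963865 where the call ended). Of 7 phloem markers none passed edgeR's test, 1 in each direction had an unadjusted p below 0.05 and DESeq2 called 1 lower, with summed levels of 48.6 to 118 and 52.4 to 58.0 CPM. Of 32 listed xylem and stone cell markers 12 had no count and 2 laccase-4-like genes were tested. Both, LOC103929799 and LOC103938588, fell (none without replicate 1 of either group, 1 without bagged replicate 2 or 3 or untreated replicate 2), with summed levels of 5.58 to 8.74 and 1.62 to 2.29 CPM. None of the 20 cork markers, 1 of 23 epidermis markers and 2 of 12 phloem markers had no count. The part of a shift in tissue makeup in the WRKY values was not tested.

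The genes whose level over the 6 libraries ran closest to the mean profile of the 7 WRKY genes were sought among 14704 described genes whose average log2 CPM reached 2. The measure was the root mean square difference of log2 CPM, each gene centred on its mean, and it uses the contrast that chose the 7 genes. LOC103967120, the salicylate carboxymethyltransferase-like gene, was closest (0.33, against a median of 1.76 over all candidates). It was followed by the ABC transporter G family member 11-like gene LOC103930284 (0.45), the metalloendoproteinase gene LOC103950918 (0.46), the ubiquinol oxidase gene LOC103952209 (0.48) and the calcium-binding protein CML45 gene LOC103964989 (0.50). LOC103950918 and LOC103964989 were called higher (2.61 ± 0.41 and 2.74 ± 0.44), calls that ended without bagged replicate 1 or 3 or untreated replicate 2 and, for LOC103964989, without bagged replicate 2 or untreated replicate 1 as well (edgeR adjusted p 0.0592 to 0.0846), and LOC103930284 was not (adjusted p = 0.0514, edgeR). LOC103930284 had 4.80, 5.14 and 22.7 CPM in untreated and 133, 59.2 and 72.1 CPM in bagged libraries.

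With group means removed, which leaves out that contrast, the 5 closest genes were different ones. They were described as acetyl-CoA carboxylase 1-like (LOC103966543, 0.18, against a median of 0.60), U-box domain-containing protein 29-like (LOC103957981, 0.18), TIFY 5A-like (LOC103951293, 0.19), a cell division cycle cofactor of the APC complex (LOC103943312, 0.21) and LEAF RUST 10 receptor-like kinase (LOC103947107, 0.21). None of these 5 was called between groups with all 6 libraries in edgeR (adjusted p 0.185 to 0.945). DESeq2 called LOC103957981 and LOC103947107 higher (adjusted p = 0.0171 and 0.0241), and so did edgeR without untreated replicate 3 (0.0401 and 0.0267). Of the 5 genes, 2 to 5 stayed when single WRKY genes were left out of the mean profile. The 7 WRKY genes themselves lay 0.18 to 0.54 from the mean of the other 6 on this measure. Nothing is read from that, because the measure keeps the place of untreated replicate 3, which was in view in the choice.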

How the data were processed

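RNA sequencing of fruit skin gave 1 table with 3 untreated and 3 bagged libraries. Per the submitters' processing notes HISAT2 was used; the counter, strand setting, build and annotation were not given in the sources used here. Read counts and FPKM per gene and library are the authors' values per the file headers, as are their log2 fold change, the p-value columns (not used here), and group means as a scaled signal (deposited, not used here).

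Counts were analysed with edgeR 4.0.16 (R 4.3.3): filterByExpr (minimum count 10, minimum total 15) kept 25139 of 42933 genes, with TMM factors, no covariate and the quasi-likelihood test, adjusted over all tested genes. The SE of a log2 fold change was taken as its size over the root of its F statistic. The script was checked on simulated data. CPM is scaled by TMM factors, and log2 CPM uses a prior count of 2. Libraries of a group differed by more than counting noise (chi-square over its degrees of freedom was 11.7 to 19.4). Where nothing says that samples came from separate trees, p-values measure the spread between these samples, which may be technical.

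Members and lists were chosen with earlier results of these data known. Scaffold positions are those listed in the table. The genes named are the 7 members, up to 2 called genes per list (average log2 CPM of at least 2, groups not overlapping, largest fold change) and the 5 genes nearest in profile by each measure. Core salicylate and kinase genes were added by role. Alternatives were RLE factors, library size alone, no filter, a filter of CPM 1 in 3 libraries, DESeq2 1.42.0, a replicate block, each library left out, and for the place of untreated replicate 3, log2(FPKM + 1).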

Additional observations from a re-analysis of the deposited data

How the results depend on the processing

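All 7 WRKY genes kept a positive log2 fold change under each alternative that gave them a value (the CPM filter left 5 of them), and their median ran from 3.19 to 4.16 against 3.50. Their membership of the called set, which describes the choice of genes and is no test of them, shrank to 6 under the replicate block, to 1, 2 and 5 without untreated replicates 1, 2 and 3, and to 1 and 3 without bagged replicates 1 and 3. Without untreated replicate 3 the untreated counts of WRKY18 are all 0, so its fitted fold change has no interpretable size. The median place of untreated replicate 3 ran from 0.32 to 0.38 without single libraries. Over all genes, DESeq2 called 756 higher and 745 lower, and without single libraries 70 to 306 were higher and 135 to 386 lower. Over the 17 lists together 24 of 867 tested genes were higher and 39 lower. These became 70 and 61 with DESeq2, and 37 were higher with no filter. Without single libraries 2 to 47 were higher and 14 to 36 lower, highest without untreated replicate 3 (47 higher) and lowest without bagged replicate 1 (2 higher, 14 lower); without untreated replicates 1 and 2 they were 4 and 3 higher and 22 and 23 lower, and without bagged replicates 2 and 3 they were 11 and 7 higher and 16 and 29 lower. With the replicate block 50 list genes were higher. The labels do not say that equal replicate numbers mark a shared tree or day, and deviations of same-numbered libraries correlated at -0.04, 0.08 and 0.06 over genes, so the block pairs libraries by number only. The cause of these shifts was not tested. Of the 25 list genes named by the rule, 5 calls held without each library in turn. The planned count of W-boxes was not run, as no promoter sequence was given. Depth limits WRKY40, WRKY18 and WRKY53, with 6, 1 and 7 untreated counts in all.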
